A study of Pimephales promelas with 28 samples.

Results

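Control liver of the fathead minnow (Pimephales promelas) was compared between the 72 h and the 24 h time points of a 3-day phenanthrene exposure series. The comparison holds the 5 arrays labelled as 72 h and the 4 arrays labelled as 24 h that received no agent, which is 9 of the 28 arrays of the series. All 9 carry RNA of female, sexually regressed fish kept at a labelled dose of 0 ng per L, so the groups differ in the labelled time and in no other labelled property. Phenanthrene arrays of the same times, 4 at 72 h and 5 at 24 h with a labelled dose of 29 ng per L, served for comparison, as did 5 control arrays at 48 h. What the labelled time counts from for a control fish, and whether each array held RNA of 1 fish, is stated in none of the labels. Replicate numbers were assigned in deposit order as names, and p-values measure the spread between arrays.

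The liver makes most plasma proteins, stores and releases glucose and lipid, and clears foreign compounds. In egg-laying fish the female liver also makes the egg yolk precursor vitellogenin under the control of oestrogen, and that synthesis is low when the ovary is regressed. Liver transcript levels in fish are known to move with feeding, handling, light cycle and season, and untreated animals sampled beside exposed ones show how far such levels move without the compound. Phenanthrene is a polycyclic aromatic hydrocarbon with 3 fused rings found in crude oil and combustion residues. The probes are named by expressed-sequence contigs, gi numbers or clones, and no file or table pairs them with genes. Hence neither the liver identity of the samples nor any pathway could be checked through marker genes, and the transcripts below are given by probe with the contig as identifier.

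Each array has 15208 probes with 1 spot each. Values are log2 processed signals minus the log2 of the array's own 75th percentile, so that 0 stands for the signal of the 75th percentile, and a difference of 1 is a 2-fold difference in signal. In bulk tissue, fewer cells of a type and less RNA per cell cannot be told apart. The number of probes well above background, as marked by the scanner software, lay between 9553 and 11735 on the 72 h arrays and between 9403 and 12180 on the 24 h arrays. All 9 arrays were scanned on 1 day, and each of the 3 slides used holds arrays of both times. Control 72 h replicate 3 stood apart from the other 72 h arrays: its 10 spike-in probes averaged -1.27 relative to its 75th percentile, against 0.86 to 1.37 on the other 4, and its negative-control signal was higher. Several of the results that include it are also given without it.

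No transcript passed the test. Of 11492 probes tested, 0 differed between 72 h and 24 h at an adjusted p under 0.05 (limma, Benjamini-Hochberg), which is 0%, and no adjusted p was below 0.964. An unadjusted p under 0.05 was reached by 473 probes (4.12%), of which 97 were higher at 72 h (0.844%) and 376 were lower (3.27%). Without control 72 h replicate 3 there were 97 higher and 182 lower, and scaling to each array's median instead of its 75th percentile gave 410 higher and 133 lower. The median difference over all probes tested was -0.15 on the log2 scale, with 4485 probes higher and 7007 lower at 72 h. The precision differed widely between probes. The 95% confidence interval of the difference lay wholly within a 2-fold change in either direction for 41.8% of the probes tested, and within a 4-fold change for 92.5%. The remaining intervals extended beyond those limits. All these intervals took the spread from the 28 arrays of the series, exposed liver included, and not from the compared arrays alone.

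Some transcripts separated the 9 arrays completely. The 72 h and 24 h values did not overlap for 422 of the 11467 tested probes that had a usable spot on every one of the 9 arrays (3.68%). Of the 126 ways to label 5 and 4 arrays, 1 separates a probe completely in each direction. That is a share of 0.00794 for 1 direction and 0.0159 for both. Probes are not independent, and the counts were not tested against those shares. Among the 422 probes, 113 were higher at 72 h (0.985%), near the share for 1 direction. Their differences were 0.18 to 4.14 with a median of 0.56. The other 309 were lower at 72 h (2.69%), with differences of -4.74 to -0.32 and a median of -1.06. This split depended on the scaling and the background correction, with 441 higher and 92 lower under median scaling, 147 and 119 under quantile normalization, 108 and 85 under normexp, and 141 and 109 in the authors' deposited table. Without control 72 h replicate 3 it was 210 higher and 359 lower. Among the 8069 probes well above background on all 9 arrays without a left-out spot, 262 did not overlap, 106 of them higher and 156 lower at 72 h. Of the 422, 184 also had an unadjusted p under 0.05 with the spread taken from all 28 arrays, 286 with the spread of the 14 control arrays and 337 with that of the 9 compared arrays. Over all 11492 probes tested, the counts in these fits were 473, 891 and 1025. The separation and the difference behind each p-value come from the same 9 values of each probe, so the p-values are no separate evidence for it.

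The clearest separation belonged to UF_Ppr_AF_115263 (contig FJU.7218.C1). It measured -0.70, -0.04, -0.68, -0.56 and -0.14 on the 72 h arrays, against -2.68, -2.36, -2.89 and -2.66 on the 24 h arrays. The lowest 72 h array therefore lay well above the highest 24 h array. The means were -0.42 ± 0.31 at 72 h (SD, n = 5) and -2.65 ± 0.21 at 24 h (SD, n = 4), a difference of 2.22 (SE 0.63) or 4.67-fold, with a limma adjusted p of 0.964. Within the slides that hold both times the difference was 1.83, 2.52 and 2.31, and with normexp background correction it was 1.31. The probe's spread was far larger in exposed liver at 72 h and 24 h. There the probe averaged -0.90 ± 1.13 at 72 h (SD, n = 4) and -1.95 ± 1.95 at 24 h (SD, n = 5). Exposed liver at 48 h had a smaller spread, at -0.11 ± 0.53 (SD, n = 5). When the spread was taken from the 14 control arrays only, the same difference had an SE of 0.23 and a limma adjusted p of 0.00145. From the 9 compared arrays only, the limma adjusted p was 0.0572. At 48 h the control arrays averaged -0.82 ± 0.18 (SD, n = 5), which is nearer to 72 h than to 24 h, although 4 of those 5 arrays were scanned on another day.

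A brighter transcript, UF_Ppr_AF_117302 (FJU.9874.C1), was also higher in every 72 h array. It measured 3.47, 3.80, 3.54, 3.68 and 3.92 at 72 h, against 2.84, 3.005, 3.01 and 2.71 at 24 h. The means were 3.68 ± 0.18 at 72 h (SD, n = 5) and 2.89 ± 0.14 at 24 h (SD, n = 4). The difference of 0.79 (SE 0.24), or 1.73-fold, had a limma adjusted p of 0.964 and was 0.54, 0.66 and 1.09 within slides. The 48 h control arrays lay between the 2 times at 3.23 ± 0.28 (SD, n = 5). In exposed liver the probe averaged 3.53 ± 0.35 at 72 h (SD, n = 4) and 3.47 ± 0.23 at 24 h (SD, n = 5), a difference of 0.06 (SE 0.24).

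Of the 2 lower transcripts, UF_Ppr_AF_103256 (FJU_SB_30.376.C1) separated the times and UF_Ppr_AF_107151 (FJU.9330.C1) did not. UF_Ppr_AF_103256 measured -3.77, -2.76, -3.59, -2.82 and -4.27 at 72 h, against -1.93, -1.86, -2.20 and -2.29 at 24 h. Its means were -3.44 ± 0.65 at 72 h (SD, n = 5) and -2.07 ± 0.21 at 24 h (SD, n = 4). The difference was -1.37 (SE 0.37) with a limma adjusted p of 0.964, and -1.87, -0.98 and -1.25 within slides. With normexp it was -0.45. The spread among the 72 h arrays exceeded that among the 24 h arrays. UF_Ppr_AF_107151 measured -2.55, -1.65, -3.86, -3.01 and -4.03 at 72 h, against -1.57, -1.205, -1.12 and -1.98 at 24 h, so that 72 h replicate 2 fell inside the 24 h range. Its difference was -1.55 (SE 0.41), with a limma adjusted p of 0.964, and -0.73 with normexp.

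Both lower transcripts had 48 h control values near those of 72 h. UF_Ppr_AF_103256 averaged -3.34 ± 0.58 and UF_Ppr_AF_107151 averaged -2.79 ± 0.31 on the 48 h control arrays (SD, n = 5 each). In exposed liver UF_Ppr_AF_103256 averaged -3.19 ± 0.59 at 72 h (SD, n = 4) and -3.21 ± 0.52 at 24 h (SD, n = 5). UF_Ppr_AF_107151 averaged -3.05 ± 0.23 at 72 h (SD, n = 4) and -2.78 ± 0.65 at 24 h (SD, n = 5) in exposed liver. The 24 h control arrays were the group that stood highest for both probes. Both were chosen for lower control values at 72 h than at 24 h, so a high 24 h mean was partly selected for. No other probe on the array shares a cluster number with any of these 4 contigs.

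**Figure D1:**
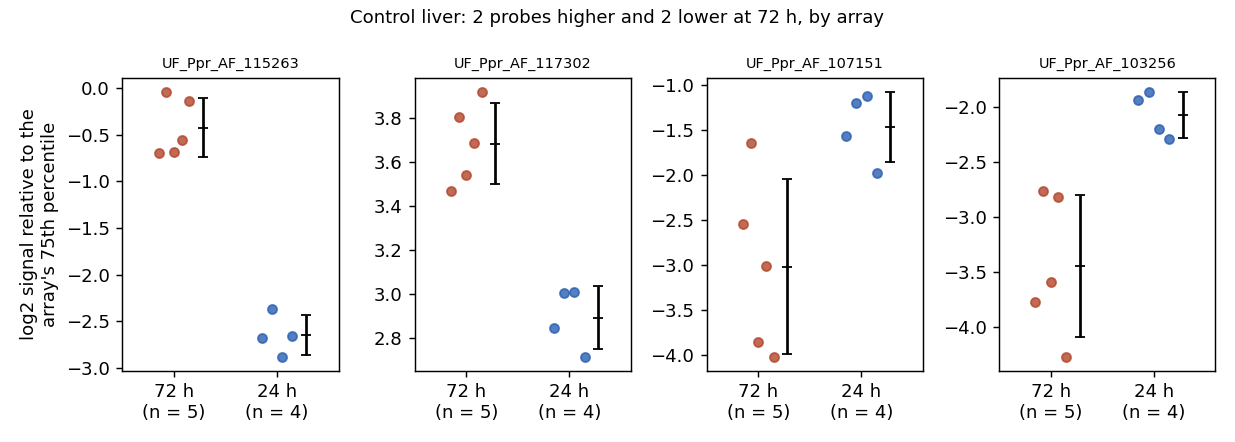
Log2 signal relative to the array's 75th percentile (y axis) for 4 probes in control liver, with each point 1 array, 72 h (n = 5) left of 24 h (n = 4), and bars for the mean and SD. The y axes differ between panels. UF_Ppr_AF_115263 lies between -0.70 and -0.04 at 72 h and between -2.89 and -2.36 at 24 h, and only UF_Ppr_AF_107151 has overlapping groups.

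The 2 non-overlapping probes with the widest differences, chosen after their values were seen, were uneven within a time. UF_Ppr_AF_114374 (FJU.513.C1) measured 6.64, 6.58, 5.40, 6.79 and 6.76 at 72 h, against 0.00, 0.88, 5.00 and 3.28 at 24 h. The 72 h arrays were alike and the 24 h arrays were spread widely, with 24 h replicate 3 close to the 72 h range. The difference was 4.14 (SE 1.61), with a limma adjusted p of 0.964. The 48 h control arrays ranged from -1.48 to 7.35, so that a control array was low at that time too.

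UF_Ppr_AF_106049 (FJU.6986.C1) measured 2.09, -7.46, 2.1, 2.16 and -6.47 at 72 h, against 2.28, 3.65, 3.91 and 3.05 at 24 h. Replicates 2 and 5 at 72 h were not above background, while the other 3 lay just under the lowest 24 h array. Its difference of -4.74 (SE 2.04; limma adjusted p 0.964) rests mainly on 2 of 5 arrays, and with another background correction (normexp) it was -2.92. At 48 h the control arrays again ranged widely, from -4.83 to 3.27.

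Few transcripts were above background on every array of 1 time and on none of the other. Of the 15208 probes, 1771 were above background on none of the 9 arrays. A single probe, UF_Ppr_AM_120354 (FJU.3494.C4), was above background on all 5 arrays at 72 h and on none of the 4 at 24 h. Its measured means were -3.87 at 72 h and -5.84 at 24 h. It was on average at least 1.95-fold higher at 72 h, with a limma adjusted p of 0.964. This bound used, on each 24 h array, the lowest signal marked well above background or the probe's own signal, whichever was higher. In the opposite direction 4 probes were above background on all 4 arrays at 24 h and on none of the 5 at 72 h. UF_Ppr_AF_108952 (FJU.5390.C1) was on average at least 2.43-fold lower at 72 h, with measured means of -5.36 at 72 h and -3.75 at 24 h. In exposed liver it was not lower at 72 h, with -4.30 ± 1.65 at 72 h (SD, n = 4) and -4.87 ± 1.44 at 24 h (SD, n = 5). By the same kind of bound, UF_Ppr_AF_115703, UF_Ppr_AF_109970 and UF_Ppr_AF_103893 were on average at least 1.84-fold, 1.73-fold and 1.79-fold lower at 72 h. Their arrays overlapped between the times. Their highest 72 h values of -4.17, -4.09 and -4.734 exceeded their lowest 24 h values of -4.52, -4.96 and -4.737. All 4 had a limma adjusted p of 0.964, and these 5 probes were named after their values were seen. In exposed liver UF_Ppr_AF_115703, UF_Ppr_AF_109970 and UF_Ppr_AF_103893 averaged -5.29, -5.43 and -5.46 at 72 h, against -4.89, -4.15 and -5.08 at 24 h.

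The shape of the signal distribution was also compared between the times, and no measure of it passed after adjustment. The 75th percentile divided by the median signal was 6.90, 6.73, 7.86, 7.59 and 8.07 on the 72 h arrays, against 6.28, 6.42, 5.85 and 5.89 on the 24 h arrays. The groups did not overlap, which by itself places the 72 h arrays higher within every slide. Slide 1 had 6.90 at 72 h against 6.28 and 6.42, and slide 2 had 6.73 and 7.86 against 5.85. Slide 5 had 7.59 and 8.07 against 5.89. The means were 7.43 ± 0.59 at 72 h (SD, n = 5) and 6.11 ± 0.28 at 24 h (SD, n = 4), with p = 0.0159 in a two-sided exact permutation test over 126 relabelings, where the smallest possible p is 0.00794. Adjusted over the 6 array measures compared, this became 0.0952 and did not pass. Without control 72 h replicate 3 the exact permutation p was 0.0286 over 70 relabelings. Groups of 4 and 4 arrays without overlap give that value by construction, and no smaller one is possible. The 48 h control arrays, at 7.22, 5.92, 5.93, 6.60 and 7.56, covered both ranges. In exposed liver the ratio overlapped between times, with 7.86 ± 2.15 at 72 h (SD, n = 4) and 7.15 ± 0.98 at 24 h (SD, n = 5; exact permutation p = 0.627). The higher exposed mean at 72 h rests on replicate 4 at 11.06, an array with 498 left-out and 36 saturated spots. The other exposed 72 h arrays had 6.43, 6.99 and 6.95, each below the exposed 24 h mean.

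Among the probes above background on all 9 arrays, the interquartile range of the log2 signal was 3.45 ± 0.15 at 72 h (SD, n = 5) and 3.17 ± 0.11 at 24 h (SD, n = 4). The exact permutation p was 0.0397, the groups overlapped, the adjusted p was 0.119, and without control 72 h replicate 3 the exact p was 0.0571. The spike-in level relative to the 75th percentile was 1.33, 0.87, -1.27, 0.86 and 1.37 at 72 h, against 1.19, 0.76, 1.86 and 1.195 at 24 h. These groups overlapped too, with an exact permutation p of 0.429. Of these 3 measures, only the ratio of the 75th percentile to the median separated every 72 h array from every 24 h array, and none passed after adjustment.

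**Figure D2:**
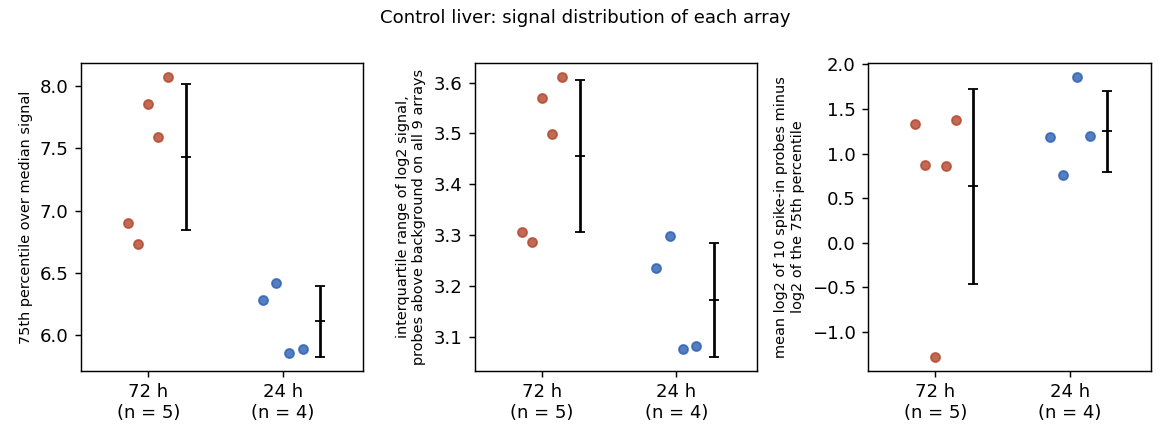
Each point is 1 control array, 72 h (n = 5) left of 24 h (n = 4), with bars for the mean and SD. The panels give the 75th percentile over the median signal, the interquartile range of log2 signal, and the log2 spike-in level relative to the 75th percentile, where 1 array at 72 h lies at -1.27. In the first panel the lowest 72 h array (6.73) lies above the highest 24 h array (6.42).

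The direction of the differences followed the brightness of the probes. In 5 groups of 2298 or 2299 tested probes ordered by mean signal over the 9 arrays, dimmest first, the median difference was -0.50, -0.36, -0.19, 0.03 and 0.09. Among the dimmest, 7 probes were higher and 155 lower at 72 h at an unadjusted p under 0.05, whereas among the brightest 38 were higher and 16 lower. Without control 72 h replicate 3 the medians were -0.40, -0.30, -0.16, 0.06 and 0.14, and the dimmest group had 9 probes higher and 82 lower. With normexp the medians were -0.23, -0.21, -0.14, 0.02 and 0.09, and the dimmest group had 0 probes higher and 0 lower at an unadjusted p under 0.05 (limma). The offset of 50 that normexp adds to every signal shrinks log2 differences of dim probes by construction. After quantile normalization, which gives every array the same distribution, they lay between -0.08 and 0.02, and the dimmest group then had 31 probes higher and 39 lower. The excess of lower over higher probes at 72 h therefore moved with the scaling, the background correction and control 72 h replicate 3, and its source was not tested.

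**Figure D3:**
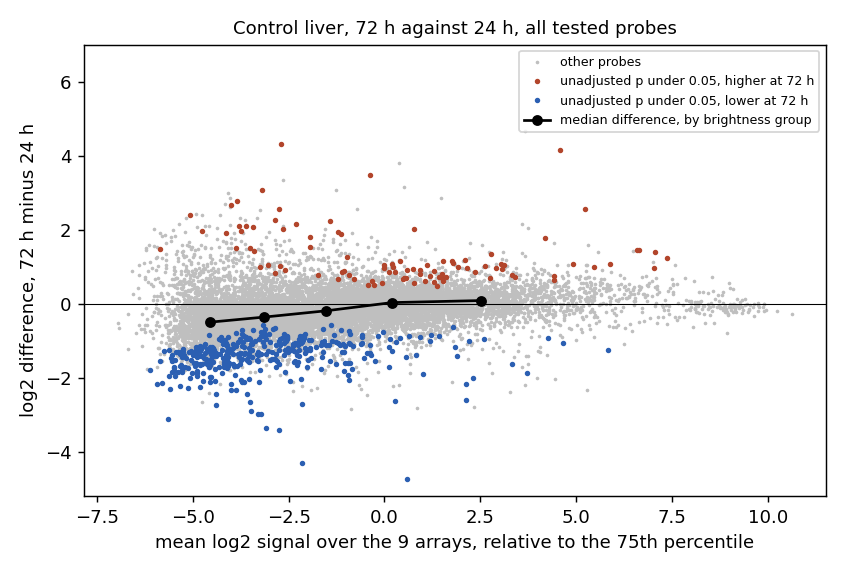
Log2 difference at 72 h minus 24 h in control liver (y axis) against the mean log2 signal over the 9 arrays (x axis) for the 11492 probes tested, with the 97 higher and 376 lower probes at an unadjusted p under 0.05 in colour. Black points give the median difference by brightness group, which goes from -0.50 in the dimmest to 0.09 in the brightest.

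Arrays of the same time were barely more alike than arrays of different times. Over the 8069 probes above background on all 9 arrays, the mean correlation was 0.926 between 72 h arrays and 0.928 between 24 h arrays, against 0.925 between a 72 h and a 24 h array. Without control 72 h replicate 3 the mean was 0.942 between 72 h arrays and 0.936 between the times. The median SD of these probes was 0.51 at 72 h and 0.44 at 24 h, and 0.42 at 72 h without that array. These correlations are over probes within arrays and carry no test.

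The same span of time was measured in exposed liver, which shares slides but no array with the controls. Over the 11492 probes the time difference in control liver and that in exposed liver had a Pearson correlation of 0.15 and a Spearman correlation of 0.20, across probes, which are not independent replicates. Of the 113 probes that were higher in every 72 h control array (0.985% of those compared), 62 were also higher at 72 h in exposed liver, which is 54.9% against 42.8% of all probes tested. Their median difference in exposed liver was 0.09. Of the 309 that were lower in every 72 h control array (2.69%), 221 were lower in exposed liver, which is 71.5% against 57.2% of all probes tested, with a median of -0.31. Among probes above background on all 9 control arrays the shares were closer for the higher probes. There 52.8% of the non-overlapping higher probes were higher in exposed liver, against 47.4% of all such probes. For the lower probes the gap hardly changed, with 66.7% lower in exposed liver against 52.6% of all such probes. The direct test of whether the time difference itself differed between exposed and control liver passed for 0 probes (0%), with 457 at an unadjusted p under 0.05 (3.98%), 226 of them with a more positive and 231 with a more negative difference in exposed liver. This split turned either way, to 465 and 204 without 3 exposed arrays that stand apart, 111 and 458 with median scaling, and 185 and 406 in the authors' deposited table. Without control 72 h replicate 3 there were 416 such probes, 170 more positive and 246 more negative. For UF_Ppr_AF_115263 the exposed difference was 1.05 (SE 0.63), and the exposed minus control value of -1.17 (SE 0.89) did not pass, with a limma adjusted p of 0.9997. That value was -0.73 (SE 0.34) for UF_Ppr_AF_117302, 1.29 (SE 0.58) for UF_Ppr_AF_107151 and 1.39 (SE 0.52) for UF_Ppr_AF_103256. Their unadjusted limma p was 0.040, 0.036 and 0.013, and none passed, with the same adjusted p. These probes were chosen on the control difference, which enters the contrast.

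**Figure D4:**
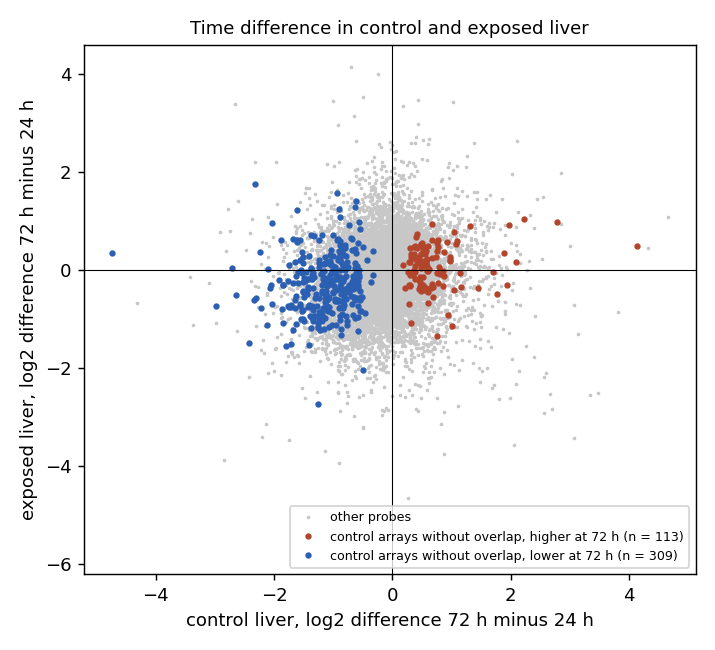
Log2 difference at 72 h minus 24 h in exposed liver (y axis) against that in control liver (x axis) for the 11492 probes tested. Coloured points are the 113 probes higher and the 309 lower at 72 h on every control array. They spread to both sides of 0 on the y axis, with medians of 0.09 and -0.31.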

How the data were processed

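Total RNA of liver, extracted with Trizol, was labelled with Cy3 and hybridised to one-colour Agilent arrays, per the labels. The authors deposited scanner tables from Agilent Feature Extraction 10.7.1.1, whose processed signal is a linear intensity after that software's background correction, per the file headers. They also deposited a table of log2 values whose normalization is not known here. It served as an alternative, and 1 of its columns that belongs to no sample was not used.

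Log2 processed signals were reduced by each array's 75th percentile over its 15208 non-control probes. Spots carrying the software's non-uniformity or population-outlier mark were dropped. A probe was tested if any of the 6 groups had 3 or more arrays well above background for it (11492 probes). Group means of all 28 arrays were fitted with limma 3.58.1 in R 4.3.3 and adjusted by Benjamini-Hochberg at 0.05, with 22 residual degrees of freedom. The fit was tried on simulated data with added changes, independent probes and the same spread on every array. The measured arrays include outlying ones and probes that are not independent, so that trial is no evidence on the count of 0. Array-level values were compared by two-sided exact permutation tests. Precision is limited by the number of arrays.

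The comparison and its lists were chosen with earlier results of these data known. Of 15208 identifiers, 0 matched a reference table of 64593 genes, so the 22 gene and cell-type lists could not be applied. In their place the named probes are the 2 higher and 2 lower with the smallest unadjusted p among those well above background on all 9 arrays with no left-out spot. Other probes are named after their values were seen. Alternatives covered scaling, background correction (normexp, offset 50, applied to median spot signals because no mean signal column was used), filters, slide, arrays and weights. Scaling to 10 spike-in probes (with and without control 72 h replicate 3), the non-overlap counts by source of spread, and leaving out control 72 h replicate 3 from the brightness groups, the array ratio and the exposed comparison, were chosen after seeing the data.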

Additional observations from a re-analysis of the deposited data

Results flagged for a closer look

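Among 24 sets of array-level values of 1 group examined by Dixon's ratio, 4 held an array whose gap to its neighbours exceeded the critical value, where chance gives about 1 in 20. Of these, 3 concern control 72 h replicate 3. Its spike-in level relative to the 75th percentile was -1.27, against 0.86 to 1.37 on the other 72 h arrays. The log2 signal of its negative controls was 2.12, against 0.68 to 0.81. Its mean correlation with the other 8 control arrays was 0.894, against 0.930 to 0.937 for the other 72 h arrays. The same value was 0.912 to 0.934 for the 24 h arrays, lowest for replicate 2. The 4th was control 24 h replicate 2, whose bright-corner spots had a log2 signal of 10.75, against 11.38 to 11.48 on the other 24 h arrays.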

How the results depend on the processing

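No probe passed under most alternatives. The exceptions were 1 with the 14 control arrays only (UF_Ppr_AF_115263) and 3 within slide 1, where 1 array at 72 h met 2 at 24 h and its spread was assumed equal to that of the other groups (UF_Ppr_AF_105175, UF_Ppr_AF_110199 and UF_Ppr_AF_102424, whose differences there of 7.27, -5.81 and -5.44 were 0.76, -1.39 and -1.35 over all 9 arrays). The count at an unadjusted p under 0.05 (473) was 203 with normexp, 250 with probes above background on all 9 arrays, 271, 245 and 233 within slides 1, 2 and 5 (each with 1 array at 1 of the times), and 227 (216 higher, 11 lower) with spike-in scaling, or 98 (53 and 45) when 72 h replicate 3 was also dropped. It was 1025 with only the 9 arrays, 891 with the 14 controls, 752 without 3 exposed arrays that stand apart and 1600 with array weights. Leaving out 1 array gave 279 to 601, the lowest when 72 h replicate 3 was dropped and 308 when 24 h replicate 3 was. The count of probes without overlap (422) was 266 with quantile normalization, 193 with normexp, 262 above background on all 9 arrays, 250 in the authors' table and 164 (159 higher, 5 lower) with spike-in scaling, or 230 (163 and 67) when 72 h replicate 3 was also dropped. Leaving out 1 array gave 569 to 1057, with 871 and 737 without 72 h replicates 1 and 2, and 806, 1057 and 653 without 24 h replicates 1, 2 and 4. Fewer arrays separate more easily by construction. The median difference (-0.15) turned to 0.13 with median scaling, 0.00074 in the authors' table and 0.47 with spike-in scaling (0.035 when 72 h replicate 3 was also dropped), and was -0.19 to -0.11 with 1 array left out. The split at an unadjusted p was 97 higher to 376 lower, against 410 to 133 with median scaling, 181 to 173 with quantile normalization and 204 to 171 in the authors' table. The count for the exposed minus control difference (457) was 882 with array weights (525 more positive in exposed liver, 357 more negative). The 4 rule-named probes gave 1.31 to 2.84 (UF_Ppr_AF_115263), 0.54 to 1.41 (UF_Ppr_AF_117302), -1.90 to -0.73 (UF_Ppr_AF_107151) and -1.87 to -0.45 (UF_Ppr_AF_103256) in 28 alternatives. Selection on these arrays largely fixed the kept sign. Normexp gave the smallest size for 3, and its offset of 50, added to every signal, shrinks log2 differences of dim probes by construction. Median and spike-in scaling move every probe of an array by 1 amount by construction. Apart from that, the shrinkage by normexp and the settings where fewer probes or arrays enter, the cause of the shifts above was not tested. No paired analysis was possible because replicate numbers follow only the order of deposit. With slide as a fixed or random block, 0 probes passed (limma) and 443 or 463 had an unadjusted p under 0.05.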
